A study of Mus musculus with 40 samples.

Results

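The genes described here are 10 genes that control entry into S phase in mouse embryonic stem cells (mESCs): the D-type cyclins *Ccnd1*, *Ccnd2* and *Ccnd3*, the E-type cyclins *Ccne1* and *Ccne2*, the kinases *Cdk4* and *Cdk6*, the CDK inhibitor *Cdkn1b*, the pocket protein gene *Rb1* and the transcription factor gene *E2f1*. They were chosen by name, with earlier results of these data known, as 10 of the 55536 genes in the count tables. All 10 passed the filter on low counts in every comparison. RNA was sequenced from wild-type (WT) cells (2 biological replicates), clones D1, G2 and H5 with a *Ccnc* KO, and clones B9, H4 and C8 with a *Cdk8* KO. Each was treated for 4 h with DMSO or with 900 nM AZD6738, an inhibitor of the replication stress kinase ATR (ATRi). *Ccnc* encodes Cyclin C and *Cdk8* its partner kinase, both subunits of the Mediator kinase module. Each KO clone was expanded from a single CRISPR-edited cell and gave 1 library per treatment, so 3 clones stand for each genotype and the 6 KO libraries of a genotype are not 6 independent lines. The 20 libraries were run in 2 multiplexes of 10, 1 for each KO, and the same 4 WT libraries were sequenced in both, so the comparisons of the 2 KOs with WT share their controls.

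In most cells, D-type cyclins bind CDK4 and CDK6 in G1 and begin to phosphorylate the retinoblastoma protein RB1, which releases E2F transcription factors. E2F1 and its relatives then switch on genes for DNA synthesis and the E-type cyclins, whose kinase CDK2 completes RB1 phosphorylation, while the product of *Cdkn1b*, p27, restrains CDK2. Mouse ES cells are known for a short G1 phase, for abundant cyclin E and for little dependence on cyclin D and CDK4/6. ATR and its effector CHK1 slow S phase and restrain mitotic entry when replication is stressed.

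The cells carried the mRNA of pluripotent stem cells: *Pou5f1* lay between 1127 and 1474 CPM (read counts scaled to the library total, which was normalised between libraries by TMM), *Nanog* between 196.8 and 381.6 and *Sox2* between 356.0 and 543.1 CPM. The 12 mESC markers summed to 5366 to 5812 CPM in the WT libraries used, 4836 to 5386 CPM in *Ccnc* KO and 4009 to 5113 CPM in *Cdk8* KO cells, with 5 and 3 of the 12 called lower, where 5.28% and 2.03% of all genes were called lower. The total count per library lay between 30899823 and 67274049, and the least abundant of the 10 genes, *Rb1*, still had at least 298 counts in each library. *Ccnc* mRNA was 4.24 to 7.40 CPM in the *Ccnc* KO libraries against 43.6 to 45.1 CPM in the WT libraries used. *Cdk8* mRNA was 52.3 to 64.6 CPM in *Cdk8* KO libraries against 71.2 to 78.6 CPM in the WT libraries used. WT replicate 2 under ATRi, which is not among these, had 57.7 CPM of *Cdk8* in the *Cdk8* multiplex, within the KO range. The 14 primitive endoderm markers summed to 443.2 to 496.9 CPM in the WT libraries used, 783.3 to 999.5 CPM in *Ccnc* KO cells and 1022 to 1419 CPM in *Cdk8* KO cells, with 12 and 14 of the 14 called higher, where 7.01% and 2.28% of all genes were, and none at 0 in any library. Among them, *Gata4*, *Gata6* and *Sox17* stayed at or under 12.7, 11.8 and 4.78 CPM. The 10 trophectoderm markers summed to 56.6 to 71.4 CPM in the WT libraries used. In *Ccnc* KO cells they summed to 73.2 to 108.6 CPM, with no overlap with these, and 5 of the 10 were called higher. WT replicate 2 under ATRi, not among the WT libraries used, had 90.2 and 91.9 CPM in its 2 runs, within the *Ccnc* KO range. The 10 markers summed to 60.2 to 100.8 CPM in B9 and C8 and to 310.2 to 324.6 CPM in clone H4, which stood apart. In *Cdk8* KO cells 1 of 9 tested was called higher. *Cdx2*, *Eomes* and *Elf5* were at most 0.95, 5.96 and 0.24 CPM anywhere. In H4 the 8 neuroectoderm markers summed to 118.3 to 135.3 CPM against 54.2 to 80.04 CPM elsewhere. Most of the H4 sum was *Nes*, at up to 90.2 CPM. *Sox1* and *Pax6* were at most 12.28 and 9.129 CPM in *Cdk8* KO cells and 11.83 and 4.895 CPM in *Ccnc* KO cells. All WT libraries had at least 13.97 and 11.18 CPM of them. Of 7 markers tested, 2 were called higher and 2 lower in *Ccnc* KO cells, *Pax6* among the latter, and 1 lower in *Cdk8* KO cells. The 8 fibroblast markers summed to 5.78 to 7.24 CPM in the WT libraries used, 8.27 to 13.0 CPM in *Ccnc* KO cells, 8.92 to 10.9 CPM in B9 and C8 and 22.6 to 25.7 CPM in H4, with none called in either KO, with *Col1a1* at up to 16.8 CPM and *Lum* at 0 in 18 of 20 libraries. The part of these marker levels in the results below was not tested, and in bulk RNA fewer cells of a type cannot be told apart from less RNA per cell. One WT library, replicate 2 under ATRi, was left out of the main fits, and its values are given apart.

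**Figure D1:**
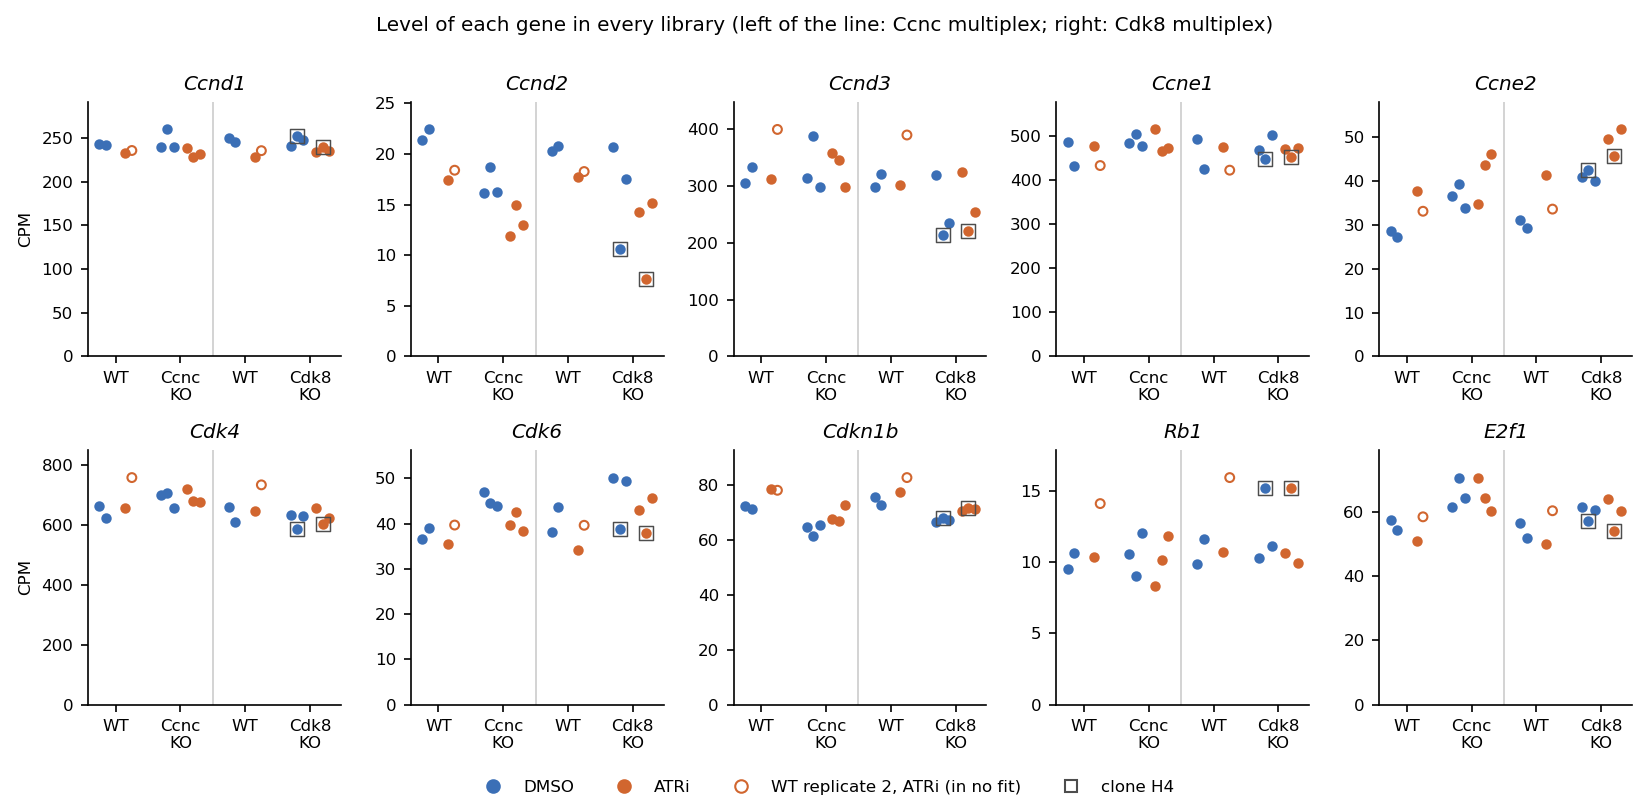
Level of each of the 10 genes in all 20 libraries, in CPM on a linear axis from 0, by genotype and multiplex, with DMSO in blue, ATRi in orange, WT replicate 2 under ATRi as an open circle and clone H4 boxed. *Ccnd2* shows the widest spread, from 7.63 to 22.4 CPM, and *Ccnd1* lies between 227.7 and 259.7 CPM.

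The windows listed as promoters of *Cdk4*, *Cdk6* and *E2f1* are shown because the genes differ in level and in response. *Cdk4* and *Cdk6* encode closely related kinases of which only *Cdk6* was called between genotypes, and *E2f1* was called in *Ccnc* KO cells. The RefSeq promoter table (GRCm38.p6) held 6 of the 10 genes, each as 250 bases before to 50 bases after a start site. Capitals mark CACGTG, the E-box bound by MYC proteins, which is its own reverse complement. The windows are chr10:127063285-127063584 (plus strand) for *Cdk4*, chr5:3343643-3343942 (plus strand) for *Cdk6* and chr2:154569377-154569676 (minus strand) for *E2f1*, whose listed start site lies 466 bases inside the GENCODE gene. The *Cdk6* start site lies 2408 bases inside its gene. The *Cdk6* and *E2f1* windows therefore lie wholly within the annotated genes and do not hold the bases before the annotated gene starts.
Cdk4: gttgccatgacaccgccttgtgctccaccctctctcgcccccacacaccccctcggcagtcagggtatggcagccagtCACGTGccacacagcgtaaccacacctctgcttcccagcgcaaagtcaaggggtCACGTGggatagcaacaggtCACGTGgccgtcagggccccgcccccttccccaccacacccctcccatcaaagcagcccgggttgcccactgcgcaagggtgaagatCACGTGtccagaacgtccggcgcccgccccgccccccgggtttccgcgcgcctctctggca
Cdk6: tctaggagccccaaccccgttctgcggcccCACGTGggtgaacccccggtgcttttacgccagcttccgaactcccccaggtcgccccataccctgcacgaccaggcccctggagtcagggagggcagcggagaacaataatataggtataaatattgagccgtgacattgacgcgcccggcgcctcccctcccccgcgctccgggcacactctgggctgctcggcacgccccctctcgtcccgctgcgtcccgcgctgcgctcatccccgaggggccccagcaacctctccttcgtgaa
E2f1: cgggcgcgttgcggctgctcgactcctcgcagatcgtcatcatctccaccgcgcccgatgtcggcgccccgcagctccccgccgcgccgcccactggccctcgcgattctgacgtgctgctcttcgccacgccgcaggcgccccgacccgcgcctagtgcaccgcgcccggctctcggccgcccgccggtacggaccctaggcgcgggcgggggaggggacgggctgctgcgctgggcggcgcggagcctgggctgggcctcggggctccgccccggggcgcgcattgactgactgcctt

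The *Cdk4* window held CACGTG 4 times, with first bases at -172, -118, -98 and -11 from the start site, and the *Cdk6* window held it once, at -220. Of 32851 promoters of this length 7.15% held the motif and only 8, *Cdk4* included, held it at least 4 times. The E2F motifs TTTCGCGC, TTTGGCGC, TTTCCCGC and TTTGCCGC, searched on both strands, were in none of the 7 windows listed for the 10 genes and in 2.26% of all promoters, which says only that these letters are not in these windows.

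Per kilobase of exon, the order of the levels was the same in WT cells under DMSO in both multiplexes. *Cdk4* (chr10:127063534-127067920, plus strand) was highest with 197.3 CPM per kb as the mean of the 2 WT libraries in the *Ccnc* multiplex. *Ccne1* (chr7:38097984-38107534, minus strand) followed with 172.7 CPM per kb, and the ranges of these genes over all libraries overlapped. Next came *Ccnd1* with 51.5 and *Ccnd3* with 36.4 CPM per kb. *E2f1* (17.7 CPM per kb) and *Cdkn1b* (15.8 CPM per kb) were neighbours whose ranges over all libraries, 15.8 to 22.4 and 13.5 to 18.2 CPM per kb, overlapped. *Ccne2* reached 7.98 CPM per kb. *Cdk6* (2.71 CPM per kb), *Ccnd2* (2.33) and *Rb1* (1.68) were lowest. Over all libraries *Rb1*, at up to 2.66 CPM per kb, overlapped both of the others, while *Cdk6* stayed above *Ccnd2*, with at least 2.45 against at most 2.38 CPM per kb. The mRNA of *Cdk6* was 1.20% to 1.81% of the summed *Cdk4* and *Cdk6* level per kb in all 20 libraries, and *Ccne2* was 4.28% to 7.68% of the summed E-type cyclin level.

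The D-type cyclin mRNA of these cells was mainly *Ccnd1* and *Ccnd3*. Summed per kb, the D-type cyclins lay between 76.7 and 101.4 CPM per kb. *Ccnd1* made up 51.3% to 67.7% of the sum and *Ccnd2* 1.06% to 2.60%. The share of *Ccnd3* was 30.9% to 36.0% in clones H4 and C8 and 38.1% to 46.7% in all other libraries. The same clones had the lowest sums, 76.7 to 81.4 CPM per kb. These shares depend on the length of all annotated exons together, 4.71 kb for *Ccnd1* and 8.78 kb for *Ccnd3*. In CPM, *Ccnd3* was above *Ccnd1* in WT cells under DMSO, with 305.1 and 332.8 against 243.1 and 241.8 CPM in the *Ccnc* multiplex. In H4 under DMSO it was below, with 214.3 against 251.9 CPM.

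**Figure D2:**
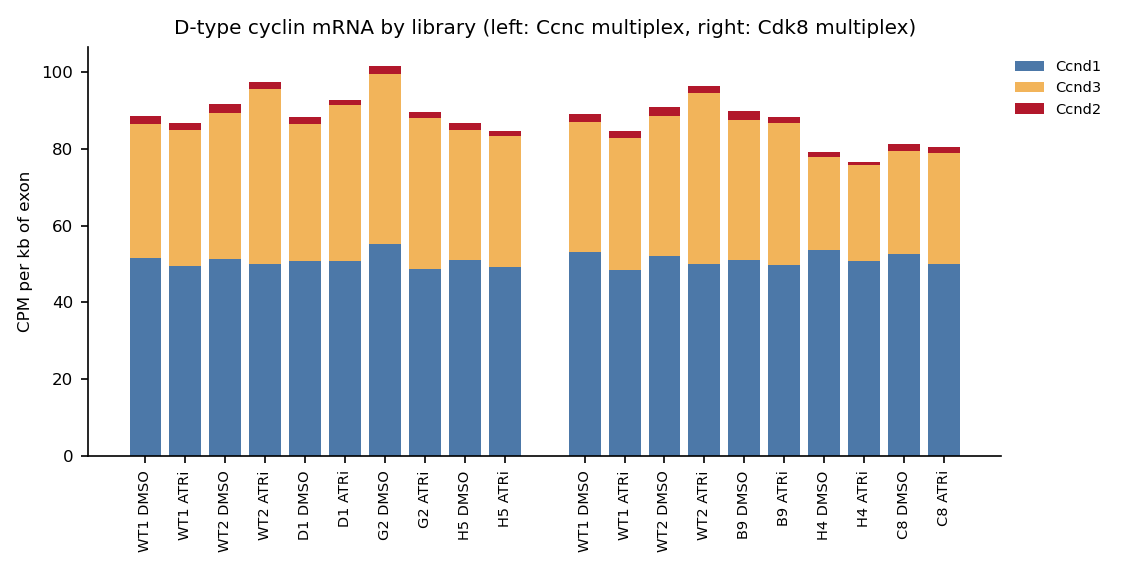
D-type cyclin mRNA in each library as stacked bars, in CPM per kb of exon on a linear axis from 0, with the *Ccnc* multiplex on the left and the *Cdk8* multiplex on the right. The *Ccnd1* segment is much alike across libraries, the *Ccnd3* segment is short in H4 and C8, and *Ccnd2* is a thin top segment of at most 2.60%.

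The first question was whether loss of Cyclin C changed these genes, with treatment as a term in the model. In *Ccnc* KO cells *Ccnd2* fell and *Ccne2*, *Cdk6* and *E2f1* rose, each by less than 1.4-fold. These are 4 of the 10 genes, where 12.3% of the 18577 genes tested were called (edgeR quasi-likelihood test with Benjamini-Hochberg adjustment, adjusted p under 0.05). The D-type cyclin that fell was the scarce one.

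*Ccnd2* (chr6:127125162-127152193, minus strand) encodes a D-type cyclin that binds CDK4 and CDK6. Under DMSO it was at 21.3 and 22.4 CPM in WT replicates 1 and 2 and at 16.1, 18.7 and 16.3 CPM in clones D1, G2 and H5. Under ATRi it was at 17.5 CPM in WT replicate 1 and at 11.9, 14.9 and 12.9 CPM in the same clones. Within each treatment all 3 clones lay below the WT libraries, although G2 under DMSO was above WT replicate 1 under ATRi. The log2 fold change was -0.37 ± 0.09 (SE), 0.77-fold (edgeR adjusted p = 0.0108).

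*Ccnd1* (chr7:144929931-144939925, minus strand), the D-type cyclin with the highest level per kb of exon, was not called. It lay between 228.6 and 259.7 CPM in the 6 *Ccnc* KO libraries and between 232.6 and 243.1 CPM in the 3 WT libraries, with a log2 difference of 0.02 (95% interval -0.09 to 0.13). *Ccnd3* (chr17:47505051-47599691, plus strand) had a wider interval, -0.09 to 0.26, around 0.08.

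Among the E-type cyclins, which activate CDK2, *Ccne2* (chr4:11191351-11204779, plus strand) was at 28.5 and 27.2 CPM in WT replicates 1 and 2 and at 36.5, 39.4 and 33.9 CPM in D1, G2 and H5 under DMSO. Under ATRi it was at 37.8 CPM in WT replicate 1 and at 34.8, 43.7 and 46.2 CPM in the clones. The groups were apart under DMSO and overlapped under ATRi through D1. The log2 fold change was 0.29 ± 0.09 (edgeR adjusted p = 0.0496), and with the clone as a random block in limma voom the adjusted p was 0.0790. *Ccne1* was at 465.2 to 515.2 CPM in the *Ccnc* KO and 432.7 to 486.7 CPM in the WT libraries, with a log2 difference of 0.07 (95% interval -0.06 to 0.19).

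*Cdk6* (chr5:3341485-3531008, plus strand), a catalytic partner of the D-type cyclins, was at 36.6 and 39.1 CPM in WT replicates 1 and 2 and at 47.1, 44.5 and 43.9 CPM in D1, G2 and H5 under DMSO. Under ATRi WT replicate 1 had 35.5 CPM, and the clones had 39.6, 42.5 and 38.3 CPM. All clones were above WT within each treatment, and H5 under ATRi overlapped WT under DMSO. The log2 fold change was 0.23 ± 0.06 (edgeR adjusted p = 0.0260). With WT replicate 2 under ATRi included, the adjusted p was 0.108. Its abundant relative *Cdk4* lay between 654.6 and 720.0 CPM in *Ccnc* KO and between 621.2 and 661.3 CPM in WT libraries, with a log2 difference of 0.09 (95% interval -0.01 to 0.20).

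*E2f1* (chr2:154559407-154569892, minus strand), an activator of S-phase genes, was the 1 gene of the 10 whose 6 *Ccnc* KO libraries did not overlap the WT libraries. Of all genes tested in this multiplex, 14.4% were apart in this way. It was at 57.4 and 54.3 CPM in WT replicates 1 and 2 and at 61.5, 70.4 and 64.2 CPM in D1, G2 and H5 under DMSO, and at 50.9 CPM in WT replicate 1 against 70.6, 64.1 and 60.1 CPM under ATRi. The log2 fold change was 0.28 ± 0.07, 1.21-fold (edgeR adjusted p = 0.0148).

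*Cdkn1b* (chr6:134920401-134925513, plus strand), the gene of the inhibitor p27, was at 72.4 and 71.3 CPM in WT replicates 1 and 2 and at 64.5, 61.4 and 65.5 CPM in the clones under DMSO. Its log2 difference of -0.17 ± 0.05 missed the threshold (edgeR adjusted p = 0.0504) and passed it with DESeq2 (adjusted p = 0.0227). *Rb1* (chr14:73183673-73325822, minus strand) lay between 8.37 and 12.1 CPM in *Ccnc* KO and between 9.56 and 10.6 CPM in WT libraries, with a 95% interval of the log2 difference from -0.22 to 0.28.

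Most of these calls were lost when 1 replicate or clone was left out, with log2 changes of the same sign. Without WT replicate 1, the only WT library in the fit was WT replicate 2 under DMSO. The log2 changes in *Ccnc* KO cells were then -0.40 for *Ccnd2*, 0.43 for *Ccne2*, 0.21 for *Cdk6* and 0.27 for *E2f1*. Without WT replicate 2 or without G2 (1387 genes called), *Ccnd2* alone of the 10 was called, and without H5 the call of *Ccne2* was lost (adjusted p = 0.0823). With the DMSO libraries alone, 635 genes were called, with *Ccne2* as the 1 member.

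**Figure D3:**
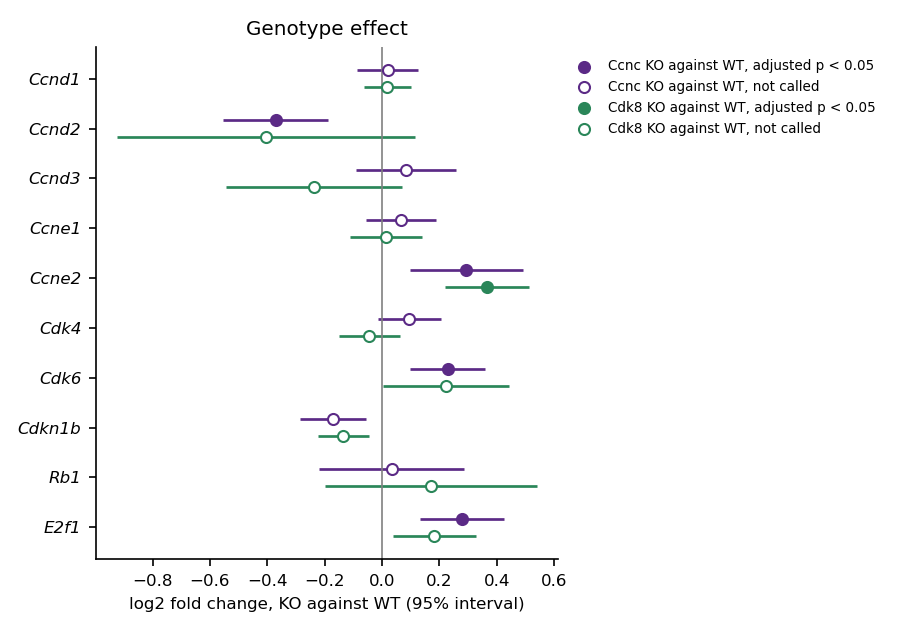
Log2 fold change of each gene in *Ccnc* KO (purple) and *Cdk8* KO (green) against WT, with 95% intervals from edgeR and filled points for adjusted p under 0.05. *Ccne2* is filled in both, and *Ccnd2*, *Cdk6* and *E2f1* in *Ccnc* KO alone, where the *Cdk8* KO points lie on the same side of 0.

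In *Cdk8* KO cells *Ccne2* rose and none of the other 9 genes was called. This is 1 of the 10 genes, where 4.31% of 18721 genes were called. *Ccne2* was at 31.2 and 29.3 CPM in WT replicates 1 and 2 and at 41.0, 42.5 and 39.9 CPM in B9, H4 and C8 under DMSO. Under ATRi it was at 41.4 CPM in WT replicate 1 and at 49.5, 45.8 and 51.8 CPM. All clones were above WT within each treatment. The log2 fold change was 0.37 ± 0.07, 1.29-fold (edgeR adjusted p = 0.0156), and with the clone as a random block the adjusted p was 0.0943. The call was also lost without WT replicate 2 (263 genes called of all) and without C8 (247 genes), with log2 changes of 0.32 and 0.35. Without WT replicate 1, where WT replicate 2 under DMSO was the only WT library, the log2 change was 0.48.

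*Cdkn1b* was the 1 gene of the 10 whose *Cdk8* KO libraries did not overlap WT, with 66.6 to 71.7 CPM against 72.8 to 77.5 CPM, where 12.7% of all genes were apart in this way. Its log2 difference of -0.13 ± 0.04 was not called by edgeR (adjusted p = 0.0875) and was called by DESeq2 (adjusted p = 0.0235).

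The SE of the genotype effect was larger in *Cdk8* KO than in *Ccnc* KO cells for *Ccnd2* (0.23 against 0.09), *Ccnd3* (0.14 against 0.08) and *Rb1* (0.17 against 0.12). *Ccnd2* was at 10.6 and 7.63 CPM in H4 under DMSO and ATRi, against 20.7 and 14.2 CPM in B9 and 17.6 and 15.2 CPM in C8. Its interval over the clones ran from -0.92 to 0.11 on the log2 scale. *Ccnd3* was at 214.3 and 220.2 CPM in H4 and at 235.3 and 254.2 CPM in C8, while B9, at 319.3 and 324.3 CPM, lay at the upper end of the WT range of 297.4 to 321.6 CPM or just above it. The log2 difference of *Ccnd3* was -0.24 over all 3 clones (edgeR adjusted p = 0.359) and -0.42 without B9 (adjusted p = 0.0123). *Rb1* was at 15.2 CPM in H4 under both treatments and at 9.98 to 11.1 CPM in B9 and C8, against 9.86 to 11.7 CPM in WT. H4 was the lowest of the 3 clones for *Ccnd2* and *Ccnd3* and the highest for *Rb1* under both treatments. B9 and C8 changed order between treatments for *Ccnd2* and *Rb1*. H4 is also the clone with the high trophectoderm, neuroectoderm and fibroblast marker sums given above. In C8, where *Ccnd3* was low too, these sums were below those of H4. A link of the sums to these genes was not tested. Without H4, *Cdk6* (log2 fold change 0.32, adjusted p = 0.0159) and *E2f1* (0.23, adjusted p = 0.0409) passed the threshold in *Cdk8* KO cells too.

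The direct comparison of the KOs, in 1 fit with the multiplex as a term set by the shared WT libraries, called 1 gene of 18349 (0.00545%), *Ccnc* itself, and none of the 10. By unadjusted p under 0.05, 523 genes (2.85%) passed, with *Cdk4* as the 1 gene of the 10. *Cdk4* differed by 0.14 (95% interval 0.003 to 0.27, edgeR adjusted p = 0.998) and *Ccnd3* by 0.31 (-0.04 to 0.66, *Ccnc* KO minus *Cdk8* KO on the log2 scale). For *Ccnd2*, *Ccne2*, *Cdk6* and *E2f1* the differences were 0.03, -0.08, 0.01 and 0.09, with intervals from -0.50 to 0.56, -0.32 to 0.17, -0.22 to 0.24 and -0.10 to 0.28. A difference between the KOs was therefore not shown for any gene of the group, and equal responses were not shown either.

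The next question was how 4 h of ATR inhibition changed these genes. Beside genotype alone, none of the 10 was called in the *Ccnc* multiplex, where 1.11% of 18577 genes were called, nor in the *Cdk8* multiplex, where 0.0855% of 18721 were. By unadjusted p under 0.05, 4 and 2 of the 10 passed, where 16.2% and 11.5% of all genes did. Both libraries of a clone come from the same cells, and with the clone as a block *Ccnd2* was called in the *Ccnc* multiplex (log2 change -0.34, edgeR adjusted p = 0.0293) and *Ccnd2* and *Ccne2* in the *Cdk8* multiplex (-0.35, adjusted p = 0.00514, and 0.29, adjusted p = 0.00225). The same fits called 2.43% and 11.3% of all genes. With WT counts summed over both multiplexes, a clone-blocked fit over all 7 pairs, chosen after the data had been seen, called 13.4% of 19066 genes and 4 of the 10. *Ccnd2* and *Cdk6* fell, and *Ccne2* and *Cdkn1b* rose.

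*Ccnd2* was lower under ATRi in 6 of 6 KO clones, with changes of -31.1% to -13.6% from the DMSO level, and in WT replicate 1, with -18.2% and -12.5% in its 2 sequencing runs. The paired log2 change was -0.35 ± 0.05 (edgeR adjusted p = 0.000627). *Ccne2* was higher in 5 of 6 KO clones, with D1 the exception, and in WT replicate 1, where it gained 32.6% in both runs. Over the KO clones the change ran from -4.58% in D1 to 36.2% in H5. The paired log2 change was 0.26 ± 0.06 (edgeR adjusted p = 0.00784). *Ccnd2* and *Ccne2* were called in each of the 11 alternatives run on the paired fit.

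*Cdk6* was lower in 6 of 6 KO clones, with changes of -15.8% to -2.20% and a paired log2 change of -0.13 ± 0.04 (edgeR adjusted p = 0.0357). *Cdkn1b* was higher in 6 of 6, by 4.57% to 11.1%, with a change of 0.11 ± 0.03 (adjusted p = 0.0334). In the KO clones alone their adjusted p-values were 0.0646 and 0.0740. The call of *Cdk6* was lost in 5 of 11 alternatives and that of *Cdkn1b* in 9 of 11, with adjusted p of up to 0.105 and 0.126. *Ccnd1* was lower in 6 of 6 KO clones, with changes of -12.0% to -0.50%, and missed the threshold (log2 change -0.06, adjusted p = 0.174).

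The other 5 genes gave paired log2 changes between -0.02 and 0.04. Their 95% intervals were -0.04 to 0.12 for *Ccnd3*, -0.07 to 0.06 for *Ccne1*, -0.03 to 0.08 for *Cdk4*, -0.14 to 0.12 for *Rb1* and -0.12 to 0.07 for *E2f1*.

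**Figure D4:**
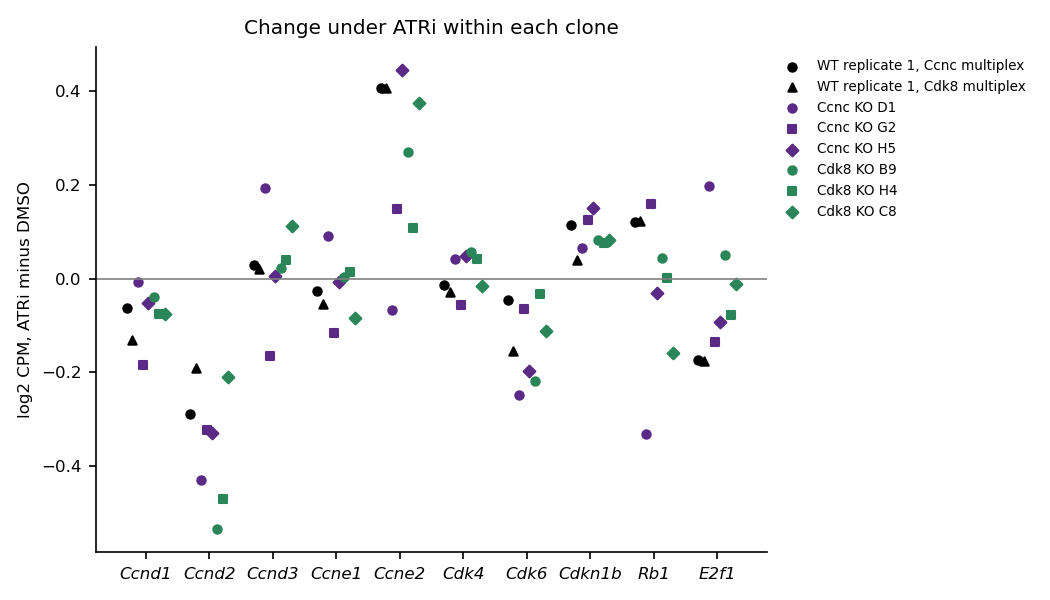
Change of each gene under ATRi within each clone, as log2 CPM under ATRi minus log2 CPM under DMSO, with WT replicate 1 in black (both runs), *Ccnc* KO clones in purple and *Cdk8* KO clones in green. All points of *Ccnd2* lie below 0, and all points of *Ccne2* but that of D1 lie above 0.

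A further comparison was whether the change under ATRi differed between KO and WT cells. The interaction of genotype and treatment called no gene in either KO (0.0% of 18577 and of 18721, edgeR). At an unadjusted p under 0.05 there were 395 and 255 genes (2.13% and 1.36%) and none of the 10. For *Ccne2* the estimate was -0.27 in *Ccnc* KO (95% interval -0.66 to 0.12) and -0.20 in *Cdk8* KO cells (-0.48 to 0.08), and for *Ccnd2* it was -0.05 (-0.45 to 0.36) and -0.18 (-1.36 to 0.99). WT cells gave 1 library under ATRi here, so its spread was taken from the other groups. For *Ccne2* a smaller rise in the KOs by as much as its paired change of 0.26 lies within both intervals, and a larger rise by as much does not.

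Genes around the 10 were followed in lists, whose members were chosen with earlier results of these data known. Of 34 E2F target genes, all tested, 9 rose and none fell in *Ccnc* KO cells, where 7.01% of all genes rose and 5.28% fell, with a median log2 change of 0.14 beside 0.0032 over all genes, and 30 of 34 estimates above 0. Among those that rose were *Rrm2* (0.46 ± 0.05, edgeR adjusted p = 5.32e-05), a subunit of the enzyme that makes deoxyribonucleotides, and *Pcna* (0.31 ± 0.07), the sliding clamp of DNA polymerases. In *Cdk8* KO cells 2 of the 34 rose, *Rrm2* (0.37 ± 0.04, adjusted p = 0.00278) among them, where 2.28% of all genes rose and 2.03% fell, and the median was 0.08 beside 0.0086. Corrected for GC content and gene length, the medians were 0.11 and 0.04, beside -0.021 and -0.029 over all genes. The count in *Ccnc* KO cells was 4 without WT replicate 2, 4 without G2 and 15 without D1. The count in *Cdk8* KO cells was 1 without WT replicate 2, 1 without C8 and 9 without H4. Without WT replicate 1, where WT replicate 2 under DMSO was the only WT library, the medians were 0.18 and 0.14. Under ATRi, 6 of the 34 rose in the paired fit, led by *Ung* (0.19 ± 0.04), *Uhrf1* (0.17 ± 0.04) and the helicase subunit *Mcm5* (0.15 ± 0.03), where 6.27% of all genes rose and 7.14% fell, with a median of 0.06 beside 0.0083. With WT replicate 2 under ATRi included, 1 of the 34 was called higher, and without WT replicate 1, without B9 or without H4 it was 2, 3 and 3.

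**Figure D5:**
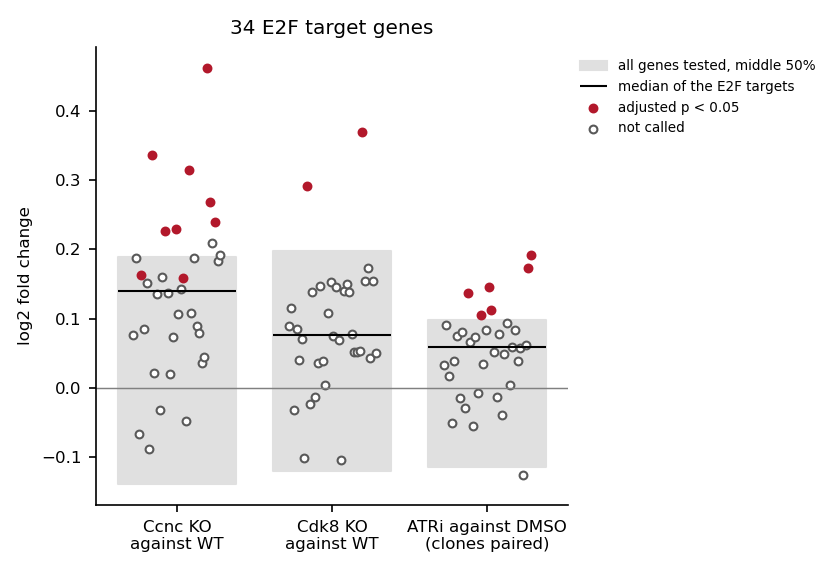
Log2 fold change of 34 E2F target genes in the 3 comparisons, one point per gene, red for adjusted p under 0.05, with their median as a line and the middle 50% of all genes tested in grey. Of the 34 genes, 9, 2 and 6 are red, and all of them lie above 0.

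Among the 6 other CDK inhibitor genes, 3 fell in *Ccnc* KO cells: *Cdkn2a* (log2 change -0.57 ± 0.12, edgeR adjusted p = 0.00806), which encodes p16 and ARF, *Cdkn2d* (-0.39 ± 0.09), which encodes p19, and *Cdkn1c* (-0.34 ± 0.10), which encodes p57. Of all genes 5.28% fell in this comparison. All 6 estimates were below 0, and the median was -0.41. In *Cdk8* KO cells none of the 6 was called (median -0.21). *Cdkn1c* rose under ATRi in the paired fit (0.39 ± 0.06, adjusted p = 0.000562).

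Of 11 other pocket protein, E2F and DP genes, 1 rose and 1 fell in *Ccnc* KO cells, where 7.01% and 5.28% of all genes did. In *Cdk8* KO cells and in the paired fit 1 rose, where 2.28% and 6.27% of all genes did. The medians were 0.028, -0.026 and 0.043, so the list did not move as a whole. *Rbl2*, which encodes the RB1 relative p130, fell in *Ccnc* KO cells (-0.49 ± 0.10, edgeR adjusted p = 0.00584). *E2f7*, a repressor of the family, rose in *Ccnc* KO (0.42 ± 0.06) and *Cdk8* KO cells (0.31 ± 0.06, adjusted p = 0.0212). *E2f2* rose under ATRi (0.18 ± 0.05). The other calls among genes that act with the G1 cyclins were *Skp2*, the F-box protein that directs p27 to degradation, which rose in *Ccnc* KO cells (0.51 ± 0.13), and *Ccna1* (0.71 ± 0.22, edgeR adjusted p = 0.0492), while *Ccna2* (0.12 ± 0.03) and *Mybl2* (0.14 ± 0.03) rose under ATRi. These were 1 of 10 ubiquitin ligase genes, 1 of 8 CDK2, cyclin A and CAK genes in each comparison, and 1 of 7 MuvB and DREAM genes, shares near those of all genes called, 12.3% in *Ccnc* KO cells and 13.4% in the paired fit. *Ccna1* was scarce, with means of 0.77 CPM in WT and 1.01 CPM in *Ccnc* KO cells under DMSO in the *Ccnc* multiplex.

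Of 11 genes upstream of the D-type cyclins, 3 fell in *Ccnc* KO cells, *Mycn* (-0.80 ± 0.06, edgeR adjusted p = 1.93e-06), *Foxo1* (-0.46 ± 0.07) and *Stat3* (-0.27 ± 0.05). In *Cdk8* KO cells *Stat3* (-0.39 ± 0.07) and *Foxo1* (-0.37 ± 0.08) fell. Of all genes 5.28% and 2.03% fell in these comparisons. Under ATRi 3 rose and 2 fell in the paired fit, where 13.4% of all genes were called, with *Lef1*, a transcription factor of the Wnt pathway, lower (-0.50 ± 0.08, adjusted p = 0.0010) and *Myc* (0.28 ± 0.05) and *Jun* (0.25 ± 0.07) higher. *Cdk4* was called in none of these comparisons. Binding of MYC proteins to the E-boxes in its window was not measured, and a link of these genes to *Cdk4* was not tested.

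The 3 of the 10 genes with the widest range of log2 CPM over the 18 libraries used were *Ccnd2* (1.55), *Ccne2* (0.93) and *Rb1* (0.86). Over these 18 libraries, each set against WT under DMSO of its multiplex, the genes most like *Ccnd2* among 17443 were *Dclk2* (Pearson r = 0.958), *Adarb1* (0.935) and *Slc6a6* (0.935). Those most like *Ccne2* were *Eif5* (0.929), *Ankrd49* (0.923) and *Nabp1* (0.920), and those most like *Rb1* were *Mdm2* (0.911), *Ercc5* (0.903) and *Shb* (0.896). The libraries share clones, treatments and, for WT, the same RNA, so these values only describe the patterns.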

How the data were processed

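RNA-seq of poly(A) RNA was analysed from 40 lane samples of mESCs, which form 20 libraries. Per the study's methods and the submitters' processing notes, the authors trimmed reads with Trimmomatic 0.38, aligned them with HISAT2 2.1.0 to GRCm38.p6 and counted them per gene and strand with featureCounts 2.0.1, with duplicate-marked reads ignored. The values used are the deposited raw counts per lane, which carry no normalization. The deposited log2 (rlog) tables were not used.

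From these counts, 2 lanes were summed per library, and symbols, coordinates and exon lengths were taken from GENCODE M21. Tests used edgeR 4.0.16 in R 4.3.3 (quasi-likelihood, TMM, filterByExpr), with Benjamini-Hochberg adjustment over all genes tested within each comparison and a threshold of 0.05. The genotype effect had treatment as a term and the ATRi effect had genotype, and their interaction was tested in a model with both. Intervals are 95%, and a prior count of 2 was used for log2 CPM. The ATRi library of WT replicate 2 was not fitted, which follows the study's exclusion of it. The main genotype, interaction and KO comparisons and the unpaired ATRi fits have no clone term. They count the 2 libraries of a clone as independent, and their p-values measure the spread between libraries. The direct comparison of the KOs also counts the 2 runs of each WT library as independent. With the clone as a random block, 237 genes were called in *Cdk8* KO cells, against 806 in the main fit. In the clone-blocked ATRi fits, a p-value measures the spread of the change under ATRi between clones. The numbers of the clones pair the treatments, since both libraries of a clone come from that clone. Deviations of the 2 libraries of a clone correlated with r = 0.207 (D1), 0.030 (G2), 0.217 (H5), 0.608 (B9), 0.682 (H4) and 0.209 (C8). The 10 genes and the lists were chosen with earlier results of these data known. The text names all 10 genes, the targeted genes, of each list at most 3 called genes per comparison with the largest change, the first 3 markers of each marker list, and for the 3 most variable of the 10 genes the 3 genes of highest correlation. Alternatives were DESeq2 1.42.0 (size factors and test), no filter, inclusion of the library left out, a GC and length correction, leaving out each replicate, a replicate block (limma 3.58.1 voom for genotype) and DMSO libraries alone. One gene that the rule would name is not reported here. The tests were tried on simulated data. Coordinates are those of GRCm38.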

Additional observations from a re-analysis of the deposited data

Results flagged for a closer look

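WT replicate 2 under ATRi, which none of the main comparisons uses, had *Ccnd3*, *Cdk4*, *Rb1* and *E2f1* above the other 3 WT libraries in both multiplexes. *Ccnd3* was at 399.6 CPM in the *Ccnc* multiplex and 389.8 CPM in the *Cdk8* multiplex, against 297.4 to 332.8 CPM in the other WT libraries. *Cdk4* was at 757.1 and 732.8 CPM, against 610.0 to 661.3 CPM. *Rb1* was at 14.14 and 15.97 CPM, against 9.56 to 11.7 CPM, and *E2f1* at 58.41 and 60.3 CPM, against 49.96 to 57.4 CPM. The same library was sequenced in both multiplexes, so the runs are not separate samples. Of 18130 genes, 26.8% were above the other WT libraries in both runs in this way. In WT replicate 1, these genes changed under ATRi by 2.09% (*Ccnd3*), -0.88% (*Cdk4*), 8.86% (*Rb1*) and -11.4% (*E2f1*) in the *Ccnc* multiplex. *Ccnd2* and *Ccne2* moved in WT replicate 2 as in the other pairs, with -18.0% and 21.6% in the *Ccnc* multiplex.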

How the results depend on the processing

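Of 920 values of the 10 genes under alternatives, none that was called changed sign. The 9 called values kept their call in 68 of 104 alternatives and missed the threshold in the same direction in 36, 21 uncalled values passed, and 83 values called under neither setting had another sign. The calls of *Ccnd2* and *Ccne2* under ATRi in the paired fit held throughout (log2 -0.38 to -0.33 and 0.22 to 0.31). With the DMSO libraries alone, 1 of the 10 and 635 genes were called for *Ccnc* KO, and for *Cdk8* KO 0 of the 10 and 5 genes. DESeq2 called 2 of the 10 and 1735 genes in *Cdk8* KO cells, and 1 of the 10 under ATRi in each multiplex (640 and 354 genes). Without a filter, 2 of the 10 and 845 genes were called under ATRi in the *Ccnc* multiplex (41 genes in the other), 20 genes in the *Ccnc* KO interaction and 4 between the KOs. With a GC and length correction 2 of the 10 were called in *Cdk8* KO cells, and 2 of the 10 and 971 genes (*Ccnc* multiplex) and 50 genes (*Cdk8* multiplex) under ATRi. With WT replicate 2 under ATRi included, 41 genes were called under ATRi in the *Ccnc* multiplex. With the replicate block, 0 of the 10 and 237 genes were called in *Cdk8* KO cells, 1 and 451 under ATRi in the *Ccnc* multiplex, for *Cdk8* likewise 2 and 2107, and 4 genes in the *Cdk8* KO interaction, none of the 10. The block removed 2 calls of the 10 genes, added 3 and changed no other. In the KO clones alone, the paired ATRi fit called 2 of the 10 and 1594 genes. The cause of these shifts was not tested.

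With 1 replicate left out, 0 to 5 of the 10 and 289 to 2640 genes were called for *Ccnc* KO, 0 to 3 and 1 to 1512 for *Cdk8* KO, 0 to 1 and 21 to 250 under ATRi in the *Ccnc* multiplex, for *Cdk8* likewise 0 to 1 and 0 to 29, 1 to 11 genes between the KOs, and 2 to 4 and 1511 to 3363 in the paired fit. The genotype fits without WT replicate 1, which gave the lowest counts of all genes called, had WT replicate 2 under DMSO as their only WT library. The interaction without WT replicate 1 could not be fitted, because no WT library under ATRi remained. With DMSO alone, 3 and 0 E2F targets were called higher in the KOs. Each of the 10 genes had at least 298 counts in every library, and each genotype had 2 or 3 replicates.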

Other observations

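Each WT library was sequenced in both multiplexes, which gives the run-to-run difference of the same RNA. For the 10 genes the largest absolute log2 difference between the runs was 0.038 for *Ccnd1*, 0.106 for *Ccnd2*, 0.128 for *Ccne2*, 0.161 for *Cdk6* and 0.175 for *Rb1*, and at most 0.083 for the other 5. *Ccne2* was higher in the *Cdk8* multiplex in all 4 WT libraries, by 0.02 to 0.13. Its range over all libraries and its share of E-type cyclin mRNA given above include this difference, and its tests compare KO and WT libraries within a multiplex or with the multiplex as a term.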
